A study of Homo sapiens with 6 samples.

Results

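The 34 genes described here encode subunits of the Polycomb repressive complexes PRC1 and PRC2, with KDM2B, the gene targeted in the study, left out. They were chosen by name from the known composition of the complexes and not by any measured value, although earlier results of these data were known. Of the 34, 22 belong to PRC1 and 12 to PRC2. All 34 were found among the 61533 gene rows of the table, and all 34 passed the filter on low counts that left 14071 genes to test.

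Polycomb complexes keep developmental genes silent through marks on histones. PRC1 is built on the ubiquitin ligases RING1 and RNF2 (RING1B), which place ubiquitin on histone H2A, and PRC2 on the methyltransferases EZH1 and EZH2, which methylate lysine 27 of histone H3 (H3K27). The PCGF protein in a PRC1 decides its form: canonical PRC1 holds PCGF2 or BMI1 with a CBX protein that reads the H3K27 mark, whereas variant forms hold RYBP or YAF2 in place of CBX. KDM2B, a protein that binds unmethylated CpG DNA, is a subunit of the variant form PRC1.1, which is assembled on PCGF1.

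RNA was sequenced from MDA-MB-231, an established human line of triple-negative breast cancer with mesenchymal features. In 3 libraries the cells carried an empty vector (their genotype is given as WT) and in 3 they carried shKDM2B, a short hairpin RNA against KDM2B. Both groups were grown in DMEM with 10% serum, and total RNA was depleted of ribosomal RNA before sequencing. The knockdown columns carry a single hairpin code, so the results rest on 1 hairpin as far as the labels show, and effects of the hairpin on other RNAs cannot be told apart from those of the loss of KDM2B. Library totals ran from 10190149 to 15737951 counts, and levels are given as CPM, counts relative to the library total after TMM scaling between libraries. Replicates are named biological without word of independent cultures; each p-value thus reflects only how these 6 libraries scatter, and that scatter can be technical.

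KDM2B was at 57.3, 68.0 and 65.3 CPM in the empty vector libraries and at 14.9, 14.5 and 14.6 CPM in the shKDM2B libraries, which left 23.1% of the control level. Sums of markers are given as CPM of the library totals without TMM scaling. The mesenchymal markers VIM, CD44, AXL and CAV1 summed to 4949 to 5332 CPM in empty vector and 4476 to 4596 CPM in shKDM2B libraries. They moved apart: VIM fell by 1.68 (log2, adjusted p 1.43e-12) and CAV1 by 0.35, whereas CD44 rose by 0.20 and AXL by 0.17. The part of these marker changes in the results was not tested. Markers of luminal breast cells (ESR1, PGR, GATA3 and FOXA1) summed to at most 13.5 CPM among the controls and 15.9 CPM after knockdown. None of 12 leukocyte, fibroblast and endothelial markers passed the filter, and none of these 3 lists summed above 1.82 CPM in any library, with CD3E at 0 in every library. The mitochondrial share of counts was 0.0767% to 0.151% in empty vector and 0.196% to 0.476% in shKDM2B libraries, and its part in the results was not tested. Empty vector replicate 2 and shKDM2B replicate 1 stood apart from the other libraries of their groups, and calls that change without them are given beside the genes.

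Of the 34 subunits, 12 were higher and 9 were lower in shKDM2B cells and 13 were not called (edgeR's quasi-likelihood test, adjusted p under 0.05 by Benjamini-Hochberg over all genes tested). That is 61.8% called, beside 60.9% of all genes tested. The share called higher was 35.3% against 30.5% of all genes, and the share called lower was 26.5% against 30.4%. A change of at least 1.5-fold was called for 9 members (26.5%, against 28.5% of all genes), and the groups did not overlap in CPM for 22 members (64.7%, against 65.5%). All of these shares lie near the background. The median log2 fold change of the members, shKDM2B relative to empty vector as for every fold change here, was 0.11, beside -0.01 over all genes, and their median absolute log2 fold change was 0.27, beside 0.36.

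**Figure D1:**
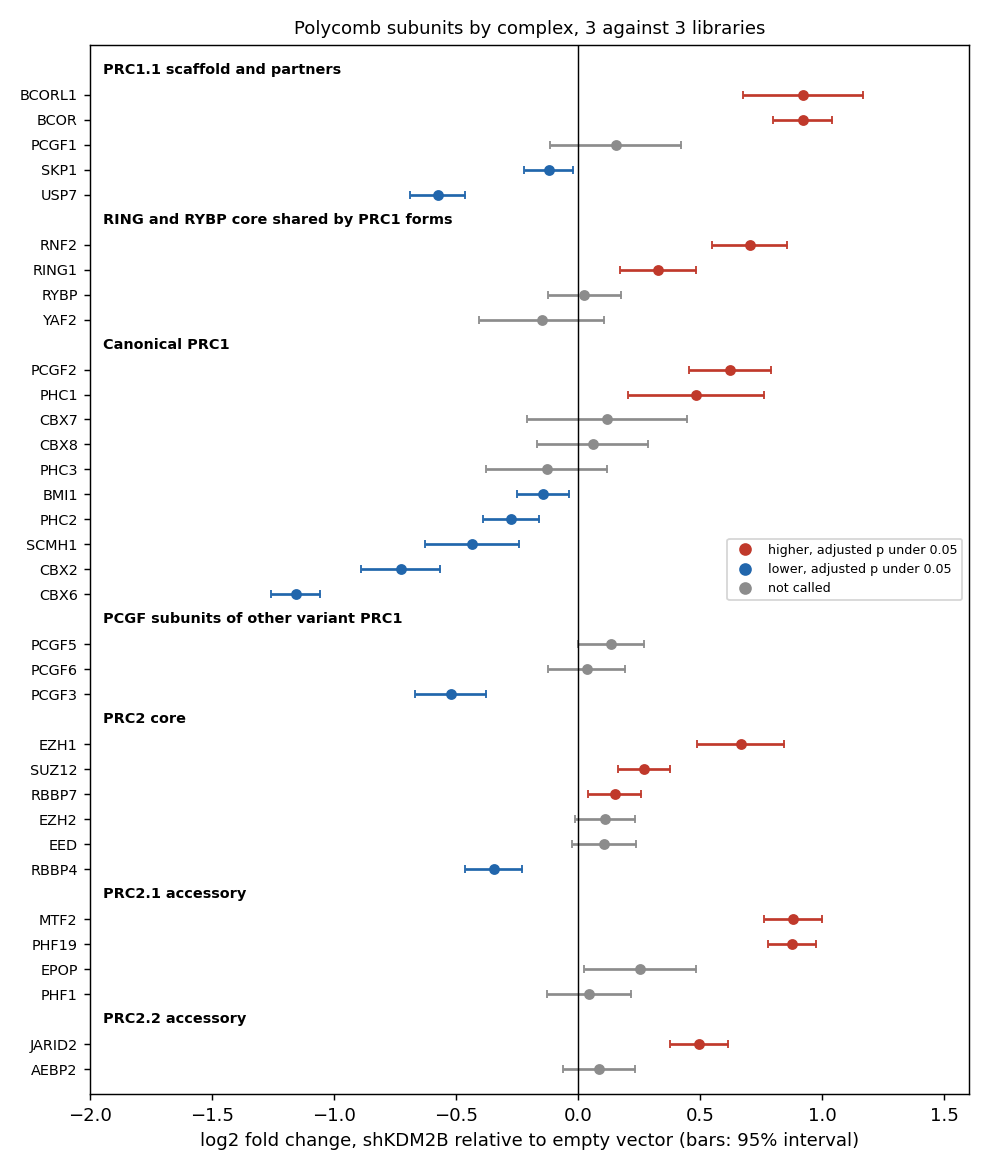
Log2 fold change of each of the 34 subunits (x axis, points) with its 95% interval (bars), by complex; red and blue points are called higher and lower, grey points are not called. BCORL1, BCOR, MTF2 and PHF19 lie farthest right near 0.9, and CBX6 lies farthest left at -1.16.

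By complex, PRC2, with 12 genes, had 6 higher (50.0%, against 30.5% of all genes) and 1 lower (8.33%, against 30.4%), and its median log2 fold change was 0.20. Among the 22 PRC1 genes 6 were higher (27.3%) and 8 were lower (36.4%), near the shares of all genes, with a median of 0.03. Whether the complexes differ was not tested. The canonical subunits, 10 of the 22 PRC1 genes, held 2 of the 6 higher and 5 of the 8 lower calls, with a median of -0.14. Among them the share called lower was 50.0%, against 30.4% of all genes, and whether it differs was not tested. Of these lower calls, that of BMI1 was lost without shKDM2B replicate 2.

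**Figure D2:**
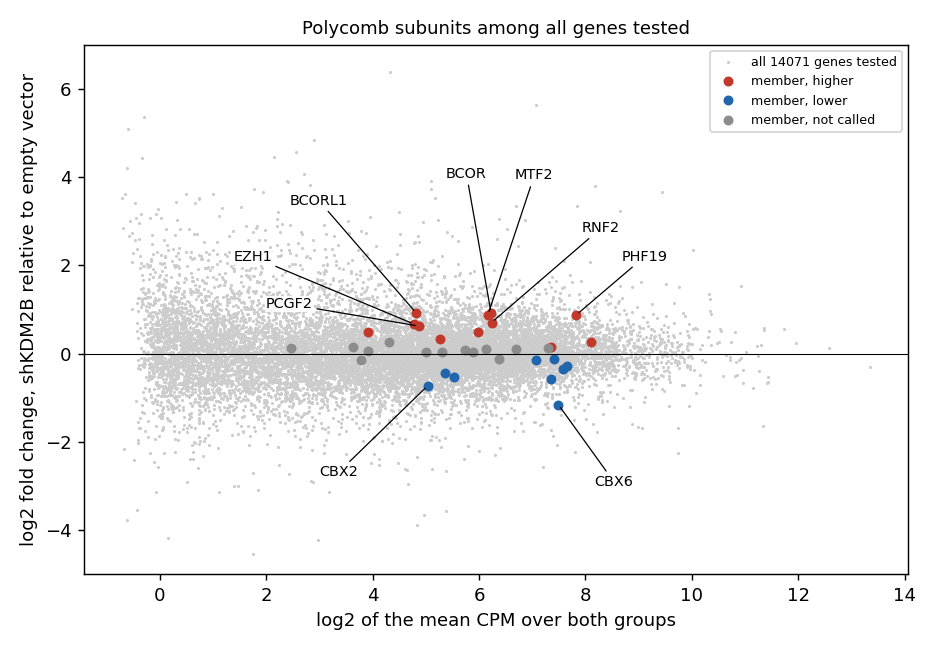
Log2 fold change (y axis) against log2 of the mean CPM over both groups (x axis) for the 14071 genes tested (small grey points) and the 34 subunits (large points); the 9 members called with a change of at least 1.5-fold are named. The members lie between -1.16 and 0.92, inside the range of all genes from -4.53 to 6.39.

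Within PRC1.1, the form that KDM2B itself belongs to, the scaffold genes rose, the deubiquitinase fell and the PCGF subunit was not called. BCOR, a corepressor that joins PCGF1 to KDM2B (ENSG00000183337.18, GRCh38 chromosome X, 40049815 to 40177329, minus strand), was at 54.1, 51.7 and 49.7 CPM in empty vector and 98.2, 94.1 and 101.3 CPM in shKDM2B libraries. Each shKDM2B library was well above every control, and the difference was 0.92 on the log2 scale (SE 0.06, adjusted p 6.65e-09). Its paralog BCORL1 (ENSG00000085185.16, chromosome X, 129981107 to 130058083, plus strand) was at 23.5, 15.5 and 19.5 CPM in empty vector and 37.1, 34.8 and 38.7 CPM in shKDM2B. It also rose without overlap, by 0.92 (SE 0.11, adjusted p 9.05e-06), and its controls were more spread than those of BCOR. The ratio of the paralogs therefore moved little: log2 BCORL1 to BCOR was -1.42 ± 0.27 in empty vector and -1.41 ± 0.02 in shKDM2B libraries (SD, n = 3 each; two-sided exact permutation p = 1). The difference was 0.02, and -0.14 without empty vector replicate 2.

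PCGF1, which defines PRC1.1, was at 12.4, 9.52 and 12.96 CPM in empty vector and 13.9, 13.1 and 12.2 CPM in shKDM2B libraries. These ranges overlap, the log2 fold change was 0.15 with a 95% interval from -0.11 to 0.42 (adjusted p 0.305), and a change as large as that of BCOR lies outside the interval. Without empty vector replicate 2, which has the lowest value, the log2 fold change was 0.02. USP7, a deubiquitinase found with PRC1.1 and with many other proteins, was at 200.7, 196.1 and 189.3 CPM in empty vector and at 131.5, 125.1 and 136.2 CPM in shKDM2B. All 3 knockdown libraries were below all 3 controls, and USP7 fell by 0.58 (log2, SE 0.05, adjusted p 3.33e-07). SKP1, an adaptor of the SCF ubiquitin ligases that PRC1.1 also carries, went from 177.7 ± 2.98 to 163.3 ± 2.73 CPM (SD, n = 3 each). Its log2 fold change of -0.12 was called (adjusted p 0.0384), but the call was lost with DESeq2, without the filter on low counts, without empty vector replicate 1 and without any 1 of the shKDM2B libraries.

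Both catalytic RING subunits, which every form of PRC1 shares, rose, and RNF2 rose more. RNF2 (ENSG00000121481.11, chromosome 1, 185045364 to 185102608, plus strand) was at 58.5, 50.4 and 62.7 CPM in empty vector and 91.4, 91.4 and 97.2 CPM in shKDM2B libraries. The lowest knockdown library was far above the highest control, with a log2 fold change of 0.70 (SE 0.07, adjusted p 1.12e-06). RING1 (ENSG00000204227.5, chromosome 6, 33208495 to 33212722, plus strand) was at 32.4, 35.9 and 34.3 CPM against 40.2, 44.5 and 44.0 CPM, a smaller rise of 0.33 (SE 0.07, adjusted p 0.00140). Log2 RNF2 to RING1 went from 0.73 ± 0.21 to 1.12 ± 0.08 (SD, n = 3 each), without overlap and with the smallest p that 3 against 3 libraries allow (two-sided exact permutation p = 0.1, adjusted 0.13 over 13 pairs of paralogs). RYBP and YAF2, the paralogs that stimulate the ligase in variant PRC1, were not called: RYBP had a log2 fold change of 0.02 (95% interval -0.12 to 0.17) and YAF2 of -0.15 (-0.41 to 0.11). RYBP was at 60.7, 52.6 and 63.0 CPM in empty vector against 58.8, 58.9 and 61.7 CPM, and YAF2 at 15.1, 13.6 and 14.9 against 10.7, 13.8 and 14.5 CPM. Ranges overlap for both genes, and the lowest YAF2 value is that of shKDM2B replicate 1, without which its log2 fold change was -0.04. Without empty vector replicate 2 that of RYBP was -0.06.

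Canonical PRC1 moved in both directions, with its CBX readers showing the largest fall of all members. CBX6 (ENSG00000183741.12, chromosome 22, 38861450 to 38872314, minus strand) was at 244.3, 251.5 and 250.2 CPM in empty vector and 111.1, 113.1 and 109.8 CPM in shKDM2B libraries. It fell by 1.16 (log2, SE 0.05, adjusted p 1.20e-10), a 2.23-fold drop that was nearly equal in every library. CBX2 (ENSG00000173894.11, chromosome 17, 79778132 to 79787983, plus strand), which also compacts nucleosomes, was at 42.4, 40.6 and 39.8 CPM against 22.9, 25.3 and 25.6 CPM. It fell without overlap by 0.73 (SE 0.08, adjusted p 1.31e-06).

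The other CBX members were low and not called. CBX8 was at 16.3, 15.2 and 12.96 CPM in empty vector and 15.7, 15.3 and 15.2 CPM in shKDM2B, with a log2 fold change of 0.06 (95% interval -0.17 to 0.29, adjusted p 0.648). CBX7 was at 5.83, 4.86 and 5.14 CPM against 6.13, 5.08 and 5.93 CPM, with 0.12 (-0.21 to 0.45, adjusted p 0.527). Both pairs of ranges overlap, and CBX7 had 0.06 without empty vector replicate 2 and 0.07 without shKDM2B replicate 1. The ratios to the paralogs that fell moved without overlap, log2 CBX8 to CBX2 from -1.46 ± 0.13 to -0.67 ± 0.11 and log2 CBX7 to CBX6 from -5.52 ± 0.15 to -4.25 ± 0.16 (SD, n = 3 each; exact permutation p = 0.1, adjusted 0.13, for each).

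The alternative PCGF subunits of canonical PRC1 moved in opposite directions. PCGF2 (MEL18; ENSG00000277258.5, chromosome 17, 38733897 to 38749817, minus strand) was at 23.7, 21.3 and 23.9 CPM in empty vector and 36.6, 36.0 and 33.99 CPM in shKDM2B, a rise of 0.62 (SE 0.08, adjusted p 1.03e-05). BMI1, its paralog and a regulator of stem cell self-renewal, was at 140.6, 142.7 and 139.2 CPM against 130.2, 122.7 and 129.0 CPM, and fell by 0.15 (adjusted p 0.0205). Neither gene's groups overlap, and log2 BMI1 to PCGF2 went from 2.61 ± 0.11 to 1.84 ± 0.08 (SD, n = 3 each; exact permutation p = 0.1, adjusted 0.13). The BMI1 call was lost without shKDM2B replicate 2. PCGF2 shares 45.7% of its exon bases with genes on the opposite strand, and the strand setting of the counting is not given: CISD3, which covers 32.7% of them, moved the other way (log2 fold change -0.55, adjusted p 1.94e-04). The readthrough gene COMMD3-BMI1, on the strand of BMI1, was listed with 0 counts.

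Among the Polyhomeotic subunits, which polymerize canonical PRC1, the most abundant fell and the rarest rose. PHC2 went from 221.2 ± 9.23 to 182.6 ± 8.90 CPM (SD, n = 3 each) and fell by 0.28 (adjusted p 4.80e-04). PHC1 was at 13.7, 10.5 and 13.3 CPM in empty vector and 14.5, 18.8 and 18.9 CPM in shKDM2B, a rise of 0.48 (SE 0.13, adjusted p 0.00517). Its groups do not overlap, but shKDM2B replicate 1 lies close to the controls. PHC1 shares 18.1% of its exon bases with M6PR on the opposite strand, which had more counts than PHC1 and was not called (log2 fold change -0.10), and the counts of a named PHC1 pseudogene were 16.9% of its own, so its value is uncertain. PHC3 was at 95.7, 68.2 and 94.6 CPM against 80.7, 76.2 and 79.9 CPM, overlapping because of the low value in empty vector replicate 2. It was not called (log2 fold change -0.13, adjusted p 0.342), and without that library it was called lower (-0.28, adjusted p 1.85e-06). SCMH1, a further canonical partner, fell by 0.43 (SE 0.09, adjusted p 7.63e-04) from 46.9 ± 5.94 to 34.9 ± 1.84 CPM (SD, n = 3 each).

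**Figure D3:**
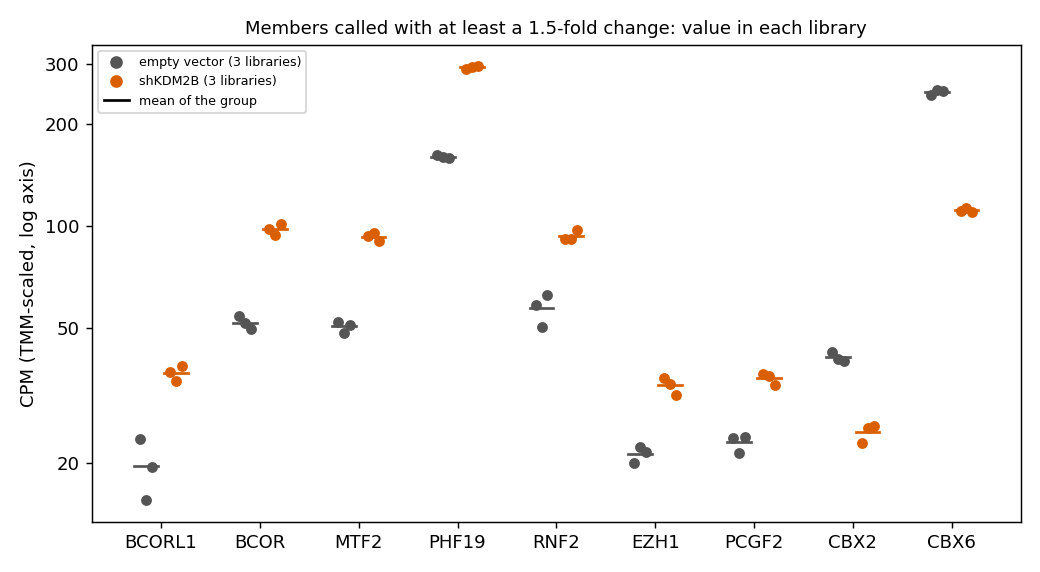
CPM of the 9 members called with a change of at least 1.5-fold (y axis, log scale; points are libraries and lines group means), empty vector in grey beside shKDM2B in orange. The groups are apart for each gene, with CBX2 and CBX6 lower and the other 7 higher in shKDM2B libraries.

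Of the 3 PCGF subunits that define other variant forms, 1 fell and 2 were not called. PCGF3 (chromosome 4, 705748 to 770640, plus strand) was at 55.7, 51.1 and 57.1 CPM in empty vector and 37.8, 37.0 and 39.2 CPM in shKDM2B, and fell without overlap by 0.52 (log2, SE 0.07, adjusted p 1.11e-05). PCGF5, which occurs in place of PCGF3 in closely similar complexes, was at 160.9, 134.9 and 154.2 CPM against 161.6, 164.2 and 167.8 CPM. Its groups do not overlap, but the nearest values almost touch and it was not called (log2 fold change 0.13, adjusted p 0.0796). Without empty vector replicate 1 it was called higher (0.18, adjusted p 0.0341), and without empty vector replicate 2 its log2 fold change was 0.06 (adjusted p 0.237). Log2 PCGF5 to PCGF3 went from 1.45 ± 0.07 to 2.11 ± 0.03 (SD, n = 3 each; exact permutation p = 0.1, adjusted 0.13). PCGF6, the subunit of the form that binds DNA with MGA, MAX and E2F6, was at 39.2 ± 3.07 and 40.1 ± 0.93 CPM (SD, n = 3 each) and was not called (0.03, adjusted p 0.702; 0.09 without empty vector replicate 2).

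Of the PRC2 core, the minor methyltransferase rose and the major one was not called. EZH1 (ENSG00000108799.13, chromosome 17, 42700275 to 42745049, minus strand), the less active enzyme, which predominates in resting cells, was at 19.9, 22.3 and 21.5 CPM in empty vector and 35.7, 34.2 and 31.6 CPM in shKDM2B libraries. It rose without overlap by 0.67 (SE 0.08, adjusted p 8.46e-06). EZH2, the enzyme of dividing cells, was at 99.9, 105.7 and 93.0 CPM against 105.1, 110.4 and 106.3 CPM. Here the groups overlap through empty vector replicate 2, and the log2 fold change was 0.11 (95% interval -0.01 to 0.23, adjusted p 0.114). Log2 EZH1 to EZH2 went from -2.22 ± 0.11 to -1.66 ± 0.10 (SD, n = 3 each; exact permutation p = 0.1, adjusted 0.13).

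SUZ12, the scaffold of PRC2 (chromosome 17, 31937018 to 32001045, plus strand), was at 261.0, 237.6 and 254.9 CPM in empty vector and 303.0, 305.2 and 299.9 CPM in shKDM2B libraries. It rose without overlap by 0.27 (SE 0.05, adjusted p 2.91e-04). EED, which reads methylated H3K27 and activates the enzyme, was at 62.2, 73.1 and 67.3 CPM against 73.2, 72.2 and 72.6 CPM, and was not called (0.11, 95% interval -0.03 to 0.24, adjusted p 0.154). The knockdown values of EED lie at the top of the control range, level with empty vector replicate 2. Without that library both EZH2 (0.15, adjusted p 0.00439) and EED (0.15, adjusted p 0.00671) were called higher.

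RBBP4 and RBBP7, paralogous histone chaperones that serve several chromatin complexes besides PRC2, moved apart. RBBP4 was at 210.1, 232.0 and 204.0 CPM in empty vector and 170.2, 168.9 and 168.6 CPM in shKDM2B, and fell by 0.35 (adjusted p 8.11e-05). RBBP7 was at 156.1, 147.1 and 159.6 CPM against 167.8, 173.6 and 171.8 CPM and rose by 0.15 (adjusted p 0.0202). Neither gene's groups overlap, and log2 RBBP7 to RBBP4 went from -0.48 ± 0.16 to 0.02 ± 0.03 (SD, n = 3 each; exact permutation p = 0.1, adjusted 0.13), so that RBBP7 drew level with RBBP4 in counts. That call for RBBP7 was lost without the filter on low counts and without shKDM2B replicate 2 or 3. RBBP4 shares 18.0% of its exon bases with SYNC on the opposite strand, which was higher in shKDM2B cells (log2 fold change 0.88, adjusted p 0.0105).

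The accessory subunits of PRC2.1, which bring PRC2 to CpG-rich DNA, included the largest increases within PRC2. MTF2 (PCL2; ENSG00000143033.18, chromosome 1, 93079235 to 93139081, plus strand), a Polycomb-like protein, was at 52.0, 48.5 and 51.05 CPM in empty vector and 93.5, 95.3 and 90.3 CPM in shKDM2B libraries. It rose by 0.88 (SE 0.06, adjusted p 7.57e-09), far beyond the spread of either group. Its paralog PHF19 (PCL3; ENSG00000119403.15, chromosome 9, 120855652 to 120894896, minus strand) was at 162.6, 159.8 and 158.4 CPM against 291.8, 294.3 and 296.2 CPM. PHF19 rose by 0.88 as well (SE 0.05, adjusted p 1.32e-09), and its libraries differed little within groups. Log2 PHF19 to MTF2 was 1.66 ± 0.05 in both groups (SD, n = 3 each; exact permutation p = 0.7).

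The remaining Polycomb-like gene did not follow. PHF1 (PCL1) was at 29.4, 31.5 and 33.2 CPM in empty vector and 30.1, 34.3 and 32.7 CPM in shKDM2B, overlapping throughout, with a log2 fold change of 0.04 (95% interval -0.13 to 0.22, adjusted p 0.654) that was 0.09 without shKDM2B replicate 1. Log2 PHF1 to MTF2 fell from -0.69 ± 0.12 to -1.52 ± 0.09 without overlap (SD, n = 3 each; exact permutation p = 0.1, adjusted 0.13). EPOP, which links PRC2 to Elongin, was at 15.8, 19.6 and 18.5 CPM against 22.3, 18.8 and 23.1 CPM and missed the threshold (0.25, adjusted p 0.0538). EPOP was called higher without empty vector replicate 2 (0.31, adjusted p 0.0112) and without shKDM2B replicate 2 (0.34, adjusted p 0.0220). In PRC2.2, JARID2, which recognizes ubiquitinated H2A, went from 52.4 ± 0.50 to 73.7 ± 2.58 CPM (SD, n = 3 each) and rose by 0.50 (SE 0.06, adjusted p 2.76e-06). Its partner AEBP2 was not called (0.08, 95% interval -0.06 to 0.23, adjusted p 0.308), and had 0.01 without empty vector replicate 2.

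**Figure D4:**
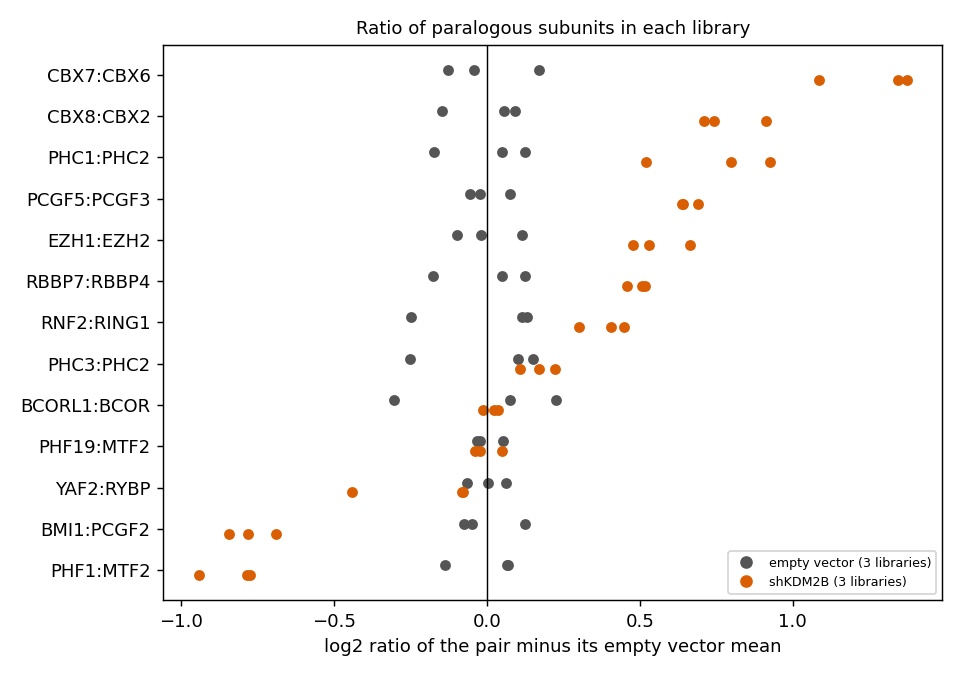
Log2 ratio of 13 pairs of paralogs in each library (points; empty vector grey, shKDM2B orange), minus the empty vector mean of the pair (x axis), with a prior count of 2, scaled to library size, added to the counts of both genes. In 10 pairs the groups do not overlap, and the share for other pairs of genes was not computed. BCORL1 to BCOR, PHC3 to PHC2 and PHF19 to MTF2 are the pairs that overlap.

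Across the 13 pairs, ratios moved without overlap in 10, each at the smallest exact permutation p possible with 3 against 3 libraries (0.1, adjusted 0.13), which cannot pass 0.05. Among single genes, 65.5% of all tested had no overlap in CPM. The share for other pairs of genes was not computed, so whether 10 of 13 is unusual was not tested. The 13 ratios do not depend on how libraries are scaled to each other. The largest shift was that of CBX7 to CBX6, 2.41-fold, followed by PHF1 to MTF2 at 1.78-fold, CBX8 to CBX2 at 1.73-fold and BMI1 to PCGF2 at 1.71-fold. In EZH1 to EZH2, PHC1 to PHC2 and BMI1 to PCGF2 the shift was towards the less abundant paralog. PCGF5 to PCGF3 and YAF2 to RYBP went the other way, towards the more abundant PCGF5 and RYBP. RNF2 to RING1 shifted towards RNF2, which has more counts but a lower level per length in empty vector cells. The YAF2 to RYBP groups are apart by a small gap, and shKDM2B replicate 1 alone lies far from the controls: the difference in log2 ratio was -0.20 with it and -0.08 without it. For PHC3 to PHC2 it was 0.17, and 0.04 without empty vector replicate 2.

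Levels can be compared between genes only per length, and for this the counts were divided by the length of each gene's merged exons and scaled to TPM, transcripts relative to the library's sum. In empty vector cells PHC2 had the highest level of the 34 (209.3 ± 12.8 TPM, SD, n = 3 as for each level here), followed by SUZ12 (180.6 ± 11.95), BMI1 (154.7 ± 1.303) and CBX6 (145.7 ± 2.71). The neighbours BMI1 and CBX6 differ beyond their SDs, whereas USP7 (115.4 ± 3.50) and PHF19 (112.0 ± 2.67) overlap within theirs. The lowest levels were those of CBX7 (3.33 ± 0.36), YAF2 (6.31 ± 0.46) and PHC1 (9.68 ± 1.53). In shKDM2B cells SUZ12 (211.3 ± 5.48 TPM) and PHF19 (199.7 ± 4.59) were highest, and CBX6 was at 63.4 ± 2.07. The order depends on the length used: with the length of the coding transcript RBBP7 moved from rank 9 to rank 1 and EED from rank 16 to rank 6.

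Expressed as shares of the summed TPM of each family, the knockdown shifted the mixture of several families by more than the SD of either group, and these shares carry no test. Over CBX2, CBX6, CBX7 and CBX8, CBX6 supplied 73.0% ± 1.43 in empty vector and 61.2% ± 0.64 in shKDM2B cells, while the share of CBX8, which was not called itself, went from 8.40% ± 0.91 to 16.3% ± 0.38. The sum of these 4 genes went from 199.7 ± 2.65 to 103.6 ± 3.04 TPM, a ratio of 0.519. RING1 supplied 57.3% ± 3.63 of the RING sum in empty vector and 50.7% ± 1.32 in shKDM2B cells, and the sum of RING1 and RNF2 was 1.37 times higher, from 154.7 ± 8.18 to 212.6 ± 10.6 TPM.

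The 6 PCGF genes together did not separate the groups, with 387.5 ± 15.5 TPM in empty vector and 379.7 ± 1.44 in shKDM2B cells. Within that sum BMI1 supplied the most in both groups, with 40.0% ± 1.296 against 35.8% ± 0.59. PCGF2 went from 7.95% ± 0.34 to 12.2% ± 0.51, PCGF3 from 8.94% ± 0.36 to 6.16% ± 0.14, and PCGF1, the PRC1.1 subunit, from 5.37% ± 0.76 to 5.995% ± 0.37 with overlap. Gains in PCGF2 thus stood beside losses in BMI1 and PCGF3.

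For the enzymes, EZH2 supplied 87.8% ± 0.80 of the EZH sum in empty vector and 83.1% ± 0.96 in shKDM2B cells, and the sum of EZH1 and EZH2 was 1.11 times higher. Among the Polycomb-like genes PHF19 went from 58.0% ± 1.00 to 63.8% ± 0.73, MTF2 from 20.8% ± 0.63 to 23.0% ± 0.57 and PHF1 from 21.2% ± 1.26 to 13.2% ± 0.69. Their sum was 1.62 times higher, from 193.3 ± 5.46 to 312.8 ± 10.2 TPM. The share of RBBP4 in the sum with RBBP7 went from 52.1% ± 2.72 to 43.6% ± 0.54, but with the length of the coding transcript these shares were 26.4% and 20.2%.

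**Figure D5:**
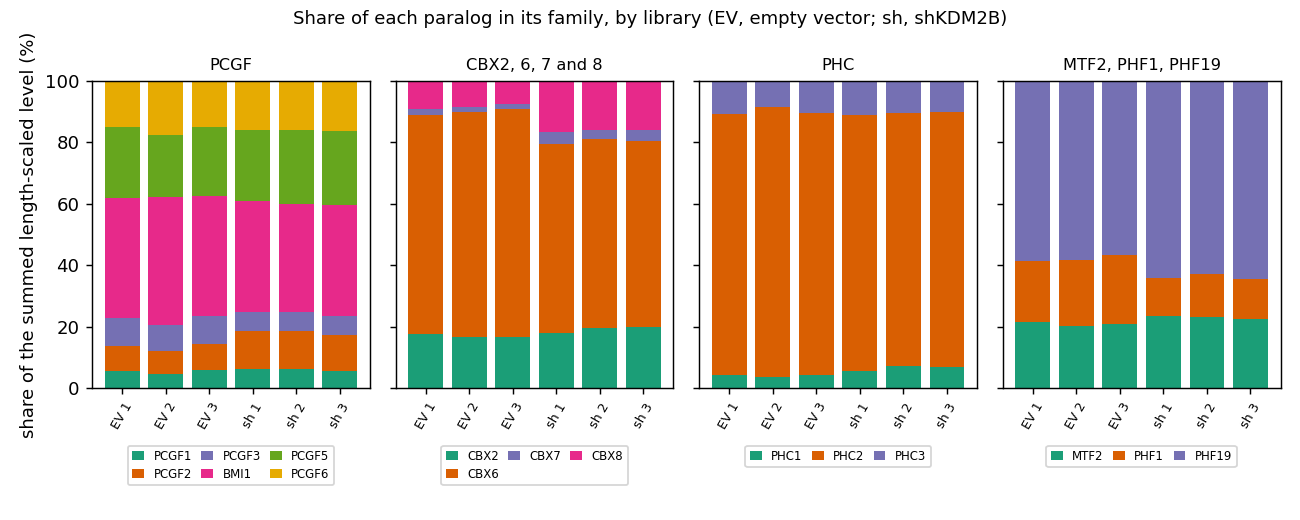
Share of each paralog in the summed TPM of its family (y axis, percent) in each library (stacked bars; EV, empty vector; sh, shKDM2B) for the PCGF, CBX, PHC and Polycomb-like genes. The mean CBX6 portion shrinks from 73.0% to 61.2% and the PHF1 portion from 21.2% to 13.2%.

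Since KDM2B and the Polycomb-like proteins bind unmethylated CpG DNA, the CpG content of the members' own promoters is given. RefSeq promoter windows of 300 bases (250 before to 50 after the start, GRCh38.p14) were given for 31 of the 34 members, all but CBX2, CBX8 and EPOP. The dinucleotide CG, which reads the same on both strands, occurs at least 1 time in 96.0% of all 35116 windows, with a median of 14 per window. The median over the 31 members, each by its richest window, was 40, and 29 of them lay above 14. Members had up to 4 windows, and the median of 14 counts every window singly. Taking the richest window therefore raises the members relative to it. The 12 members called higher had a median of 40 (range 2 to 54), the 8 called lower 45 (38 to 65) and the 11 not called 28 (14 to 55), so CpG-rich windows occurred among members that rose and among those that fell. The lowest count, 2, was that of PCGF2, which rose, and the highest, 65, that of BMI1.

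To show promoters of members that moved in opposite directions, the windows of the 2 largest increases and the 2 largest decreases among members with a single window follow, 5′ to 3′ on the gene's strand, with each CG in capitals. MTF2 (chr1:93079033-93079332, plus strand) holds 28 CG, RNF2 (chr1:185045308-185045607, plus strand) 41, CBX6 (chr22:38872167-38872466, minus strand) 47 and PCGF3 (chr4:705582-705881, plus strand) 38.
MTF2: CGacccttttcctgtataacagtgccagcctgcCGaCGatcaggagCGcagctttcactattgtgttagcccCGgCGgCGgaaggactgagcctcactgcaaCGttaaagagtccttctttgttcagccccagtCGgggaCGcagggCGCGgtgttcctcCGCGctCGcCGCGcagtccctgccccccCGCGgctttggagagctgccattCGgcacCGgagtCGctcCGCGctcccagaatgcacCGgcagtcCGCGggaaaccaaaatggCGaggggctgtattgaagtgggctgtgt
RNF2: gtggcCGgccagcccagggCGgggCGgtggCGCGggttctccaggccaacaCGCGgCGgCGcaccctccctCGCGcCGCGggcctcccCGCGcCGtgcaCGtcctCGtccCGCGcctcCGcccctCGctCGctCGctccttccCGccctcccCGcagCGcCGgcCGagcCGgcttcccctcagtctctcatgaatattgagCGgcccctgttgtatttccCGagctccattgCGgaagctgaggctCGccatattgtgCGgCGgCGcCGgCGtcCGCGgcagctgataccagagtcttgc
CBX6: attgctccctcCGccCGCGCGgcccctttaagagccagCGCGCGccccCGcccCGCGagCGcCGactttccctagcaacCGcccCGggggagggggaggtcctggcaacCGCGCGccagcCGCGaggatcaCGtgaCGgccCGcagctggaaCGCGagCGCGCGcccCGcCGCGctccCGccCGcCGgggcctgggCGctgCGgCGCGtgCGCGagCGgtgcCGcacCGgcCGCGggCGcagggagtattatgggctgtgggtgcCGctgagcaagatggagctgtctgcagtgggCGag
PCGF3: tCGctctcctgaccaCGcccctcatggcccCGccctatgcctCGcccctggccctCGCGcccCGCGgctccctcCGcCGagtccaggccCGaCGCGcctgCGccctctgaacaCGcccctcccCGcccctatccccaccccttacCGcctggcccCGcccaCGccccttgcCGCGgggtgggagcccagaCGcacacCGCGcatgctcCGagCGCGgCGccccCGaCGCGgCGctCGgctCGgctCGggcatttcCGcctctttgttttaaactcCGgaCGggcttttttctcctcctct
At least as many CG are found in 26.2% of all windows for MTF2, 6.69% for RNF2, 2.41% for CBX6 and 9.91% for PCGF3. In all 4 windows CG lie on both sides of the start, and the count is a description of these letters, not of binding by KDM2B or another protein.

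Other genes of the Polycomb pathway that are not subunits of the core complexes were tested in the same fit: of 41 listed, 38 were tested, and 13 were higher (34.2%, against 30.5% of all genes) and 11 lower (28.9%, against 30.4%). Among 16 partners of PRC1.3, PRC1.5 and PRC1.6, 5 were higher (31.2%) and 4 lower (25.0%), near those shares. FBRSL1, a paralog of AUTS2, fell by 1.03 (log2, SE 0.11), and CSNK2A2, a catalytic subunit of casein kinase 2, fell by 0.63 (SE 0.06). Of 10 other Polycomb-associated genes 8 were tested, and 6 were higher, a larger share than the 30.5% of all genes, and 1 lower (12.5%, against 30.4%), which was not tested as a difference. The sex comb on midleg-like genes SCML1 (1.01, SE 0.09) and SCML2 (0.94, SE 0.10) rose most among those above 5 CPM.

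Genes that remove the Polycomb marks were called in both directions. Of 12 tested genes of the PR-DUB complex and the other H2A deubiquitinases, which remove ubiquitin from H2A, 1 was higher (8.33%, against 30.5% of all genes) and 6 were lower (50.0%, against 30.4%), with FOXK1 (-0.59, SE 0.05), a forkhead partner of PR-DUB, and MYSM1 (-0.56, SE 0.12), an H2A deubiquitinase, falling most. Of the H3K27 demethylases, KDM6A rose by 0.52 (SE 0.09, adjusted p 1.28e-04), from 31.9 ± 4.01 to 45.8 ± 1.11 CPM (SD, n = 3 each), and KDM6B was not called (-0.14). For all pathway genes together 63.2% were called, beside the 60.9% of all genes tested.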

How the data were processed

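RNA was measured in 6 libraries of MDA-MB-231 cells, 3 with empty vector and 3 with shKDM2B, made with a KAPA kit after ribosomal RNA depletion. The authors deposited raw read counts per gene. The submitters' processing notes list STAR, Trim Galore, featureCounts, limma, edgeR and DESeq2 with GRCh38 (hg38); not given in the sources used here are versions, roles, annotation release, strand setting and the handling of multimapping reads, so reads of pseudogenes and overlapping genes can have been split or lost.

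Columns were assigned by name; the knockdown columns carry a hairpin code and were taken as shKDM2B, the only shRNA group. Genes passing filterByExpr (minimum count 10, minimum total 15) were scaled by TMM and tested with edgeR's robust quasi-likelihood test (edgeR 4.0.16, limma 3.58.1, R 4.3.3, two-sided) with Benjamini-Hochberg adjustment over 14071 genes; an adjusted p under 0.05 was called. The scripts were tested on simulated data. A count of 0 allows up to 3 counts, or 0.191 to 0.294 CPM over the libraries without TMM scaling, for counting error only. Within each group all pairs of libraries differed by more than counting noise (chi-square over degrees of freedom 2.00 to 10.0), so all 6 were used. Ratios of 13 paralog pairs (prior count 2, scaled to library size) were compared by exact permutation over libraries (scipy 1.17.1). Lengths, coordinates and overlaps came from GENCODE 29 on GRCh38, and promoter windows from RefSeq.

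The members and lists were chosen with earlier results of these data known. All 34 members are named or counted; values in every library are given at least for members called with a change of 1.5-fold or more, for members not called whose paralog was called, and for PCGF1, EZH2, EED and SUZ12; of each pathway list, the 2 called genes with the largest change and a mean of at least 5 CPM are named. Alternatives were other scalings, filters, DESeq2 (1.42.0), limma-voom, a 1.2-fold test, no robust step, a replicate block, a prior count of 0.5, other lengths and leaving out each library; the lengths of coding transcripts were added after the data were seen.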

Additional observations from a re-analysis of the deposited data

How the results depend on the processing

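Over 16 alternatives, 18 of the 34 members kept their call and direction under every one, and other scalings moved the median of all genes by at most 0.02 on the log2 scale. Tested against a 1.2-fold change, 9 of the 34 members were higher and 5 lower, and 8 pathway genes were higher. Of all 14071 genes, 2797 were higher and 2661 lower in that test. SKP1, RING1, BMI1, PHC2, SUZ12, RBBP4 and RBBP7 lost their calls there. Leaving out 1 library gave 11 to 15 members higher and 7 to 10 lower, and 11 to 13 pathway genes higher and 10 to 14 lower. Over all genes, of which 14322 to 14635 were tested, the same fits gave 3798 to 4546 higher and 3768 to 4582 lower. Both totals were largest without empty vector replicate 2. Signs turned only for members that were not called: RYBP had -0.0023 without the filter and -0.0557 to 0.0739 over the left-out libraries, and the ranges were -0.0455 to 0.122 for CBX8, -0.0133 to 0.0917 for PCGF6 and -0.0107 to 0.0920 for PHF1; the cause was not tested. Log2 BCORL1 to BCOR shifted by -0.14 to 0.13 and PHF19 to MTF2 by -0.0305 to 0.0231 over the left-out libraries, and the BCOR share by -1.79 to 1.94 points. In counts without length scaling, which weight long genes more, the share of CBX6 moved by -9.39, of EZH2 by -6.36 and of PHF19 by 3.92 points, against -11.8, -4.80 and 5.88.

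Libraries that share a replicate number did not deviate together in all 3 pairs (correlations 0.118, -0.0258 and 0.0751), so the numbers were not taken as a pairing; with the replicate as a block 12 members were higher and 9 lower, and over all genes 4249 were higher and 4230 lower against 4288 and 4283. With 3 libraries a group, the exact test of a ratio cannot pass 0.05. For low genes such as CBX7 (4.86 to 6.13 CPM) the intervals are wide at this depth, and small changes were not detectable.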

Other observations

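The 6-base word CGACAC, picked in earlier work on these data, was absent from the annotated 3' UTRs of all 34 members, in any coding transcript (GENCODE 29). It occurred in the 3' UTR of the longest coding transcript of 496 of 11812 tested genes (4.20%), whose median log2 fold change was -0.26 against 0.01 for the rest. Since the word came from work on these same data, that difference in medians is no independent test of it. KDM2B holds it in ENST00000377071.8, at position 175 of a 3' UTR of 511 bases, as ggatgagtgagcCGACACtttcctttggtc, with the word in capitals. No match says only that these letters are not in the annotated 3' UTRs, and the part of this word in the members' values was not tested.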
